A study of Homo sapiens with 6 samples.

Results

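The heat shock proteins and co-chaperones were 75 protein-coding genes among the 24526 genes, 15310 of them protein coding, that had counts in WM266.4, an established human melanoma cell line. They were chosen by a rule on symbols that uses no measured value, though earlier results of these data were known. The rule took names that begin with HSP90 or DNAJ, names that begin with HSPA, HSPB, HSPD, HSPE, HSPH, BAG or CCT followed by a digit, and TCP1. HSPA5, HSP90B1, DNAJB9, DNAJB11 and DNAJC3, chaperones of the endoplasmic reticulum, were set apart. Cells were transfected with negative control siRNA (neg.si, 3 libraries) or with siRNA specific for RIPK4 (RIPK4.si, 3 libraries), and poly(A) RNA was sequenced 48 h after transfection with no other agent named. RIPK4 is a serine/threonine kinase of the receptor-interacting protein family, and the comparison asked which transcripts differ once it is silenced. The knockdown was transient, in 1 cell line and with 1 catalogue siRNA, so an effect of losing RIPK4 and an effect of this siRNA on other transcripts cannot be told apart. The labels number the libraries without saying that they came from separate cultures. The study's methods call them biological replicates, and its figure captions speak of 3 independent experiments. Where libraries did not come from separate cultures, the p-values measure only the spread between these libraries.

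Chaperones help other proteins to reach and keep their shape. HSP70 proteins hold exposed stretches of unfolded chains in a cycle driven by ATP, in which J-domain proteins (the DNAJ genes) bring the client and start ATP hydrolysis, while BAG and HSP110 proteins release the spent nucleotide. HSP90 finishes the maturation of many kinases and receptors, the small heat shock proteins (HSPB genes) keep unfolded chains from clumping without using ATP, and the chaperonins TRiC in the cytosol and HSPD1 with HSPE1 in mitochondria fold proteins inside a closed chamber. Under stress, heat shock factor 1 binds heat shock elements, repeats of GAA and TTC, and raises many of these genes. Mutant BRAF, common in melanoma, is among the kinases that need HSP90.

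Totals of 28464057 to 31688095 read pairs on genes were counted per library, with a median of 30539087 in neg.si and 30751441 in RIPK4.si. Levels are given as CPM, counts scaled by the TMM-normalized library size, and between genes as CPM per kb of the MANE Select transcript. RIPK4 was at 85.8, 76.5 and 54.7 CPM in neg.si replicates 1, 2 and 3 and at 19.9, 16.7 and 21.5 CPM in RIPK4.si. Its log2 fold change, RIPK4.si over neg.si here and throughout, was -1.90 with a standard error of 0.20 and an adjusted p of 0.0102 in the quasi-likelihood test of edgeR, adjusted by Benjamini and Hochberg's method. The adjusted p of RIPK4 in edgeR was 0.106 without neg.si replicate 2 and 0.0940, 0.0622 and 0.0725 without RIPK4.si replicate 1, 2 or 3. In neg.si the libraries differed in how levels followed GC content, with the 2 rank-correlated across genes at 0.555 in replicate 1, 0.0815 in replicate 2 and -0.547 in replicate 3, while the RIPK4.si libraries lay between -0.0788 and 0.165. On the first principal component, which held 44.9% of the variance, neg.si replicate 3 stood farthest out. All 8 melanocyte markers examined were present. Their summed level was 3573 to 4012 CPM in neg.si and 2635 to 2759 CPM in RIPK4.si, 4 of them (TYR, DCT, S100B and PMEL) were lower with an unadjusted p under 0.05 (PMEL also with an adjusted p of 0.0111, edgeR), the other 4 overlapped between groups at log2 fold changes of 0.36 (TYRP1), 0.06 (MLANA), 0.04 (MITF) and -0.15 (SOX10), and the part of this difference in the results given here was not tested. In such bulk samples, fewer cells of a type and less RNA per cell cannot be told apart. Keratinocyte keratins KRT5 and KRT14 were at 0 in 4 of 6 libraries and at most at 0.613 CPM, while the keratinocyte list as a whole, nearly all of it KRT10, summed to 10.2 to 11.6 CPM in neg.si and 11.8 to 16.1 CPM in RIPK4.si. No leukocyte marker exceeded 2.23 CPM and no endothelial marker 1.07 CPM.

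Between genes, a few chaperones made up most of this set. Per kb of transcript in neg.si, HSPA8, the constitutive HSP70, stood at 1077 ± 71.9 (SD, n = 3), HSP90AB1, the constitutive HSP90, at 956 ± 66.1 and HSP90AA1, the inducible HSP90, at 664 ± 39.9, all in CPM per kb. These 3 genes held 50.7% of the summed level of the 75, and the 20 highest genes held 88.5%. The mitochondrial chaperonin HSPD1 came next at 285 ± 24.2, followed by the TRiC subunits CCT6A at 231 ± 12.6 and CCT7 at 208. DNAJA1 at 103 ± 6.25, DNAJC8 at 86.4 ± 13.3 and DNAJB1 at 78.2 ± 15.5 were the highest J-domain genes of their classes, BAG6 at 66.1 ± 17.4 the highest BAG gene, HSPA4 at 56.8 ± 5.24 the highest of the HSP110 class and HSPB1 at 51.1 ± 17.9 the highest small heat shock gene. The strictly stress-inducible HSPA6 stood at 2.88 ± 0.145, HSPA1A at 6.14 ± 2.24 and HSPA1B at 2.42 ± 0.211 CPM per kb. These values describe cells with no heat treatment named. Parts of the HSPA6 transcript and most of the HSPA1A and HSPA1B transcripts are identical in other genes, as given below. How the counting treated reads from such stretches is not given. The levels per kb of HSPA6, HSPA1A and HSPA1B, and their order, are therefore uncertain.

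**Figure D1:**
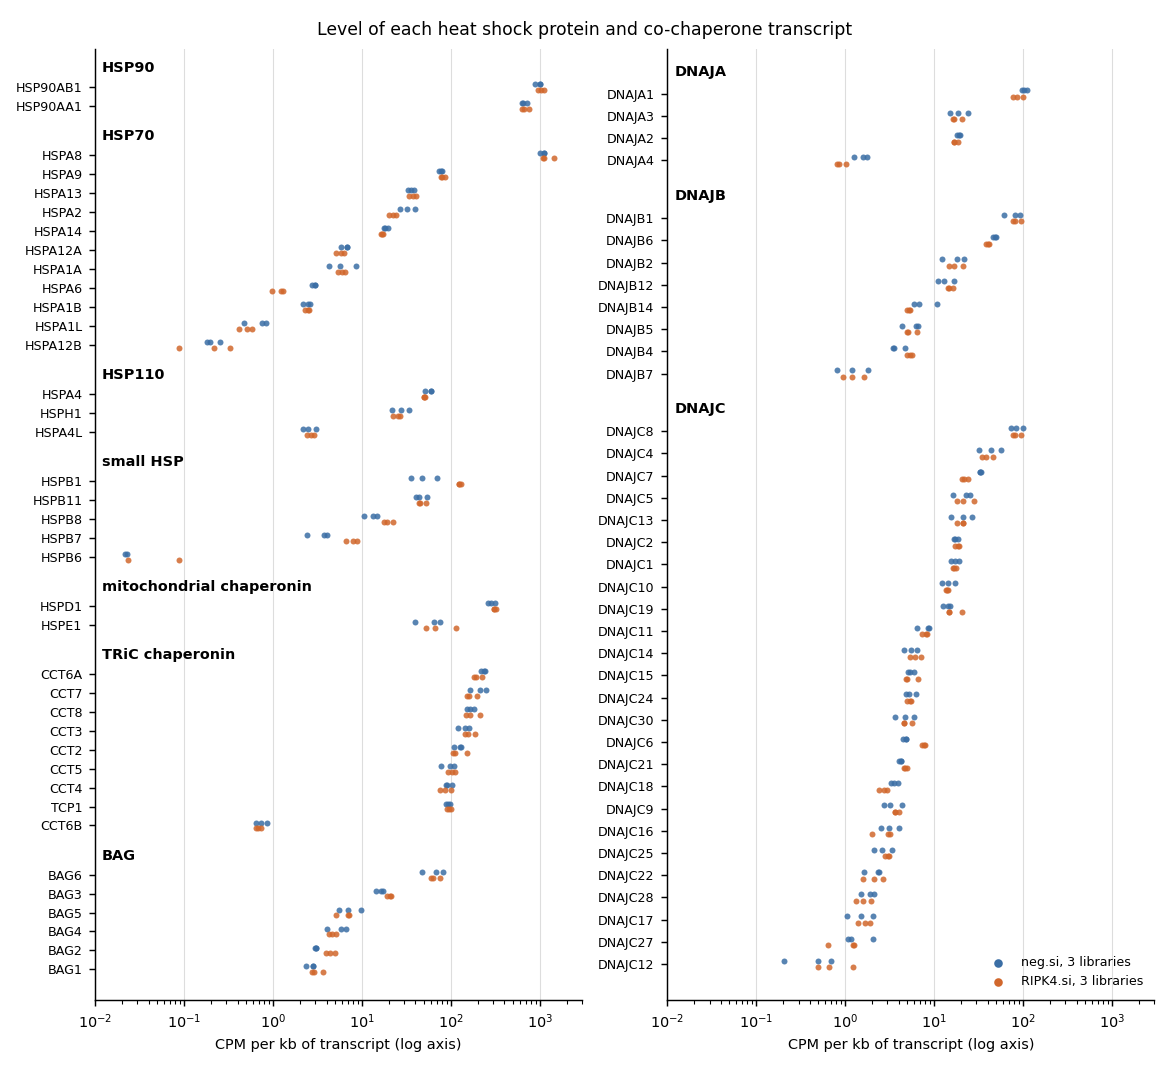
Level of the 75 genes per class, with 1 point per library, in CPM per kb of MANE Select transcript on a log axis (blue, neg.si, and orange, RIPK4.si). HSPA8 and both HSP90 genes lie at the right end, most J-domain genes below 100, and the orange points leave the blue ones visibly in HSPA6, HSPB1 and HSPB7. Libraries at 0, which only HSPB6 has, are not drawn.

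Heat shock elements in promoters were looked for as GAANNTTCNNGAA and its reverse complement TTCNNGAANNTTC, on both strands, in RefSeq promoter sequences of GRCh38.p14 that run from 250 bases before to 50 after each start. Of the 68 member genes with a sequence, 7 held the motif (10.3%), against 166 of 27305 genes overall (0.608%), so these letters were more frequent here than among all promoters. The matches are shown because HSPA6, a gene that passed the adjusted threshold, is among the genes that carry them. HSPB1, which also passed, had a promoter sequence but no match. Elements that depart from these exact letters were not looked for. Capitals mark the motif, with 1 match per gene, the one nearest to the start where a gene has more:
HSPA6, chr1:161524458-161524486, plus strand: cggaaaggTTCGCGAAAGTTCgcggcggc
HSP90AA1, chr14:102087112-102087140, minus strand: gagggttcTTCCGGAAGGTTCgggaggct
HSP90AB1, chr6:44247823-44247851, plus strand: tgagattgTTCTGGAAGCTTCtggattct
HSPA8, chr11:123062171-123062199, minus strand: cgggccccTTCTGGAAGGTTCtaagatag
HSPD1, chr2:197500060-197500088, minus strand: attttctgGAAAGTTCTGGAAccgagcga
DNAJA1, chr9:33025268-33025296, plus strand: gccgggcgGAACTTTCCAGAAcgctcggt
DNAJB6, chr7:157336865-157336893, plus strand: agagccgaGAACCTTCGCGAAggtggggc

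Of these 7 genes, HSPA6 fell after RIPK4 silencing, as given next, and the other 6 had log2 fold changes between -0.25 and 0.18 with unadjusted p-values of at least 0.05 in edgeR. A match is a description of these letters and does not show that a factor binds there.

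In RIPK4.si against neg.si, 74 of the 75 genes passed the filter on low counts and were tested. HSPB6 did not pass, with at most 0.129 CPM in a library. With an adjusted p under 0.05 in edgeR, 2 genes changed (2.7% of 74, against 0.767% of the 16297 genes tested), HSPB1 upwards (background 0.374%) and HSPA6 downwards (background 0.393%). An unadjusted p under 0.05 was found for 13 of the 74 (17.6%, against 10.8% of all genes), 7 higher (background 4.85%) and 6 lower (background 6%). Libraries of the groups did not overlap for 16 of the 74 (21.6%, against 17.6% of all genes), with 8 higher (background 8.23%) and 8 lower (background 9.4%). A log2 fold change above 0 was found for 39 of the 74, or 52.7%, beside 46.6% of all genes. The median log2 fold change was 0.01, with quartiles of -0.15 and 0.12, beside a median of -0.02 and quartiles of -0.22 and 0.17 over all genes. Within 0.25 of 0 lay 55 of the 74 genes (74.3%) and 60.5% of all genes. Among genes with a mean of at least 10 CPM these shares were 76.7% of 60 members and 71.4% of 9207 genes. Thus most of these chaperones had small fold changes, about as often as other genes of such levels.

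**Figure D2:**
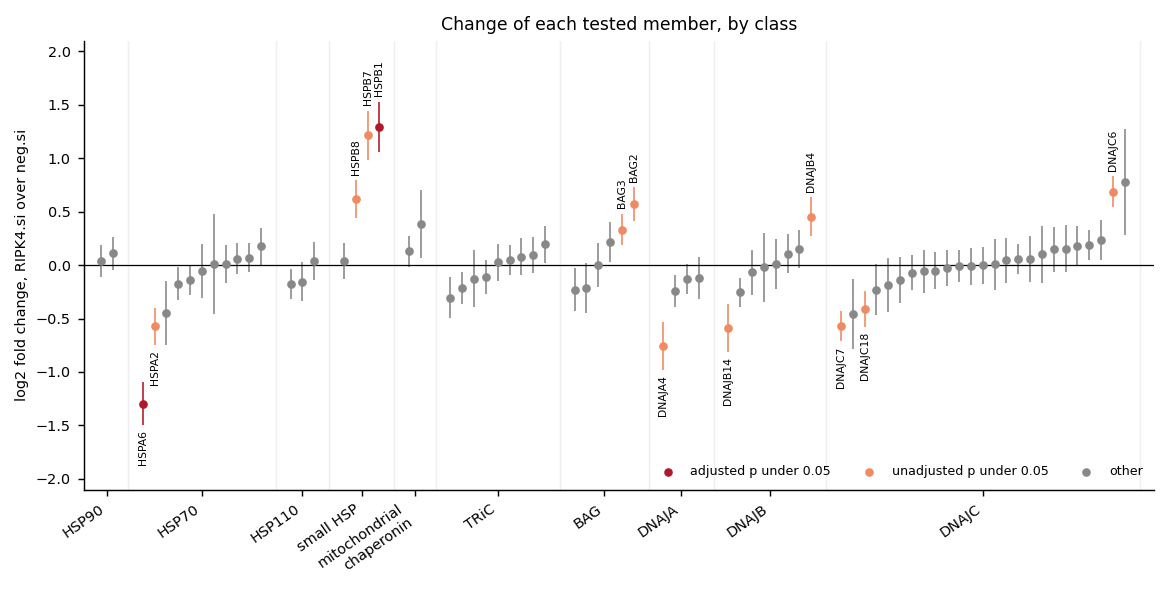
Log2 fold change of RIPK4.si over neg.si for the 74 tested genes, ordered by size within each class, with bars for the standard error and names for genes with an unadjusted p under 0.05. HSPB1 at 1.30 and HSPA6 at -1.30 (dark red) passed the adjusted threshold, and the grey genes of the HSP90, TRiC and mitochondrial chaperonin classes lie between -0.30 (CCT7) and 0.38 (HSPE1).

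The small heat shock genes had the largest median of the classes, 0.92 over the 4 tested, and in 3 of these 4 every RIPK4.si library was above every neg.si library (background 8.23%). HSPB1 encodes HSP27, which also binds actin filaments and is phosphorylated downstream of p38. HSPB1 (ENSG00000106211.9, chromosome 7, 76302673 to 76304295, plus strand, GRCh38) was at 54.8, 36.9 and 27.4 CPM in neg.si replicates 1, 2 and 3 and at 94.6, 101 and 96.2 CPM in RIPK4.si. All RIPK4.si libraries were high and close together, whereas the neg.si libraries spread over a range that did not reach them. The level was 39.7 ± 13.9 CPM in neg.si and 97.4 ± 3.57 CPM in RIPK4.si (SD, n = 3), 2.45-fold higher (log2 fold change 1.30, standard error 0.23, adjusted p = 0.0480, edgeR). The gene has a GC content of 64.3%, among the highest of the set, and its neg.si libraries fell in the order of their GC trends. With the GC trend of each library removed, its log2 fold change passed with an adjusted p of 0.00148 in edgeR. Without neg.si replicate 2 the adjusted p of HSPB1 was 0.308 in edgeR, and without RIPK4.si replicate 1, 2 or 3 it was 0.184, 0.165 and 0.245, with log2 fold changes of 1.09 to 1.62 over all omissions. With all libraries HSPB1 was not called in edgeR with DESeq2 size factors (0.0522) or where every library had to hold 10 counts (0.0510). Of its transcript, 6.05% of 100-base windows are identical in the pseudogene HSPB1P1.

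HSPB7, a small heat shock gene best known from heart and muscle, was at 7.94, 8.62 and 5.16 CPM in neg.si and at 14.3, 19.1 and 17.04 CPM in RIPK4.si. Its groups did not overlap, and its log2 fold change of 1.22 (standard error 0.23) missed the threshold in edgeR with an adjusted p of 0.0522. DESeq2 gave HSPB7 an adjusted p of 0.000214, edgeR with the GC trend removed 0.00664, and edgeR without neg.si replicate 3 gave 0.0242. It also passed in edgeR with upper-quartile normalization (0.0469), without the filter on low counts (0.0430) and with the replicate number as a block (0.0402). Without any other library it was not called, with adjusted p-values of 0.0661 to 0.298.

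HSPB8 works with BAG3 to hand misfolded proteins to autophagy. It was at 27.3, 24.5 and 19.8 CPM in neg.si and at 35.5, 41.2 and 33.3 CPM in RIPK4.si. Its groups did not overlap either (log2 fold change 0.62, standard error 0.18, adjusted p = 0.183, edgeR), and with the GC trend removed HSPB8 had an adjusted p of 0.0393 in edgeR. The fourth tested gene, HSPB11, known also as IFT25 for its part in transport along cilia, overlapped between groups (log2 fold change 0.04). Summed over the 5 small heat shock genes, levels were 142, 109 and 88.7 CPM per kb in neg.si and 193, 215 and 193 in RIPK4.si, 1.77-fold higher (exact permutation p = 0.1, two-sided, below which 3 libraries against 3 cannot go). Most of this difference was that of HSPB1. Without it, in a sum added after the values were seen, the other 4 genes came to 71.6, 61.1 and 53.4 CPM per kb in neg.si and to 70.8, 84.1 and 69.3 in RIPK4.si, a ratio of 1.20 with overlapping groups. Most of that sum was HSPB11, at 53.3, 43.9 and 40.3 CPM per kb in neg.si and 45.0, 53.1 and 43.4 in RIPK4.si. A sum of HSPB7 and HSPB8 alone was not made. The ratio of HSPB1 to HSPB8 per kb was 3.91 ± 0.791 in neg.si and 6.40 ± 0.508 in RIPK4.si (SD, n = 3, exact permutation p = 0.1), with no overlap between groups.

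Among the 11 HSP70 genes, 1 changed at the adjusted threshold (background 0.767%) and the class median was -0.06. HSPA6 encodes HSP70B', an HSP70 that is nearly silent in unstressed cells and is strongly induced by stress. HSPA6 (ENSG00000173110.8, chromosome 1, 161524540 to 161526894, plus strand, GRCh38) was at 6.97, 6.99 and 6.39 CPM in neg.si replicates 1, 2 and 3 and at 3.03, 2.32 and 2.93 CPM in RIPK4.si. All RIPK4.si libraries were below all neg.si libraries, by more than the spread within either group. The level was 0.407 of that in neg.si (log2 fold change -1.30, standard error 0.20, adjusted p = 0.0329, edgeR). With DESeq2 the adjusted p of HSPA6 was 4.19e-05. Leaving out neg.si replicate 1 or 2 gave HSPA6 an adjusted p of 0.0508 or 0.237 in edgeR, and leaving out RIPK4.si replicate 1, 2 or 3 gave 0.139, 0.120 and 0.214, with log2 fold changes of -1.36 to -1.18. Of the HSPA6 transcript, 27.8% of 100-base windows are identical in the neighbouring HSPA7. Reads from these stretches cannot be told apart by sequence, and how the counting treated them is not given.

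HSPA2, an HSP70 known for its role in sperm formation, was at 98.2, 80.8 and 67.3 CPM in neg.si and at 55.1, 50.9 and 59.9 CPM in RIPK4.si. Its groups did not overlap (log2 fold change -0.57, standard error 0.17, adjusted p = 0.220, edgeR). HSPA8 was at 2542, 2522 and 2251 CPM in neg.si and at 2456, 3297 and 2516 CPM in RIPK4.si, where replicate 2 stood above the other libraries. Its log2 fold change was 0.18 (standard error 0.17), and those of HSPA9, the mitochondrial HSP70 known as mortalin, and HSPA13 were 0.07 and 0.06, none with an unadjusted p under 0.05.

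HSPA1A and HSPA1B, the pair of major inducible HSP70 genes, share most of their sequence, with 72.4% and 72.8% of windows identical elsewhere. Their counts are uncertain, as how the counting treated reads from shared stretches is not given. HSPA1A was at 20.6, 13.5 and 10.1 CPM in neg.si and at 15.3, 12.9 and 14.2 CPM in RIPK4.si, and HSPA1B between 5.49 and 6.52 CPM in all 6 libraries. Both overlapped fully between groups, with log2 fold changes of -0.06 and 0.01. The difference in fold change between HSPA6 and this pair was not tested. In the HSP110 class, HSPA4, HSPH1 and HSPA4L had log2 fold changes of -0.18, -0.15 and 0.04 with overlapping groups.

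The HSP90 genes were nearly level between groups. HSP90AA1 was at 2291, 2085 and 2054 CPM in neg.si and at 2142, 2405 and 2057 CPM in RIPK4.si (log2 fold change 0.04, standard error 0.15), and HSP90AB1 at 2536, 2542 and 2246 CPM and at 2605, 2850 and 2451 CPM (log2 fold change 0.11, standard error 0.15). The groups overlapped in both genes. The ratio of HSP90AB1 to HSP90AA1 per kb was 1.44 ± 0.0873 in neg.si and 1.51 ± 0.0207 in RIPK4.si (SD, n = 3, exact permutation p = 0.4), and a p of this size does not show that the ratios were equal.

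TRiC is built from 8 kinds of subunit in equal number, encoded by TCP1, CCT2 to CCT5, CCT6A, CCT7 and CCT8, and folds actin and tubulin. In neg.si the 8 transcripts spanned 92.4 to 231 CPM per kb, a 2.50-fold range, and in RIPK4.si 87.3 to 200 CPM per kb, a 2.29-fold range. CCT6B, a testis form, was at 0.748 CPM per kb in neg.si. Among the 9 genes 0 had an unadjusted p under 0.05 in edgeR, as against 10.8% of all genes, and their log2 fold changes ran from -0.30 for CCT7 to 0.19 for CCT3, with -0.21 for CCT6A, 0.10 for CCT5 and 0.05 for TCP1. None had an adjusted p under 0.05 with DESeq2. The summed level was 1205, 1197 and 1049 CPM per kb in neg.si and 1021, 1286 and 1036 in RIPK4.si (ratio 0.969, two-sided exact permutation p = 0.8).

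The mitochondrial chaperonin genes HSPD1 and HSPE1, which encode HSP60 and its lid HSP10, lie head to head on chromosome 2, and annotated exons of the pair overlap by 135 bases on opposite strands. HSPD1 was at 590, 629 and 698 CPM in neg.si and at 681, 730 and 685 CPM in RIPK4.si (log2 fold change 0.13). HSPE1 was at 21.7, 41.6 and 35.95 CPM in neg.si and at 28.9, 64.1 and 36.6 CPM in RIPK4.si (log2 fold change 0.38, standard error 0.32). Both overlapped between groups, and HSPE1 varied far more between libraries. Of its windows 31.7% are identical in other genes, most of them in the readthrough gene HSPE1-MOB4. The ratio of HSPD1 to HSPE1 per kb was 5.10 ± 1.52 in neg.si and 4.44 ± 1.52 in RIPK4.si (SD, n = 3). The shared windows of HSPE1 leave the size of this ratio uncertain.

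**Figure D3:**
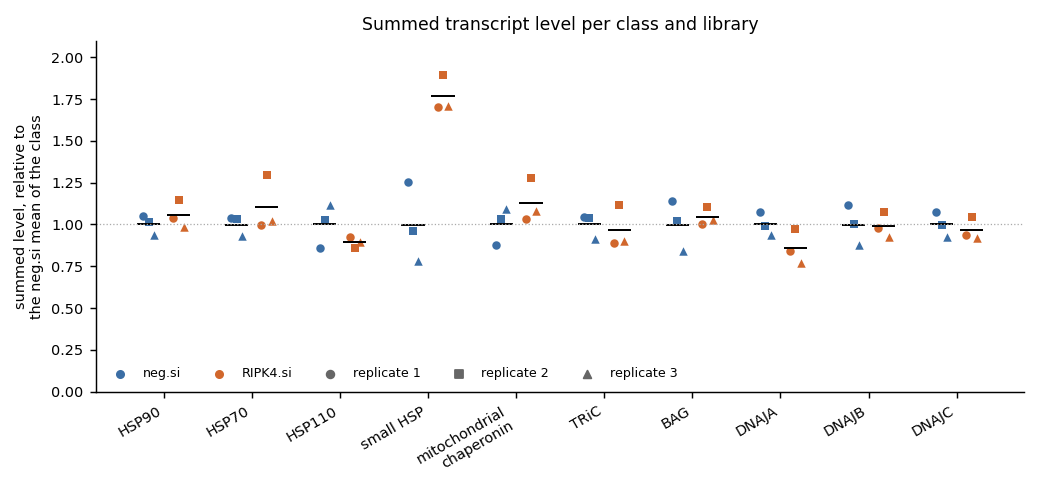
Summed level of each class in CPM per kb of transcript, divided by the mean of neg.si, with 1 point per library (blue, neg.si, orange, RIPK4.si, shapes for replicates) and a line for the group mean. Small heat shock genes reach a mean of 1.77, with every RIPK4.si library above every neg.si library. This is not so once HSPB1 is left out of the sum (1.20), most of which is then HSPB11. The groups of the other 9 classes overlap, DNAJA at 0.861 among them.

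Of the 37 J-domain genes in the DNAJA, DNAJB and DNAJC classes, 0 passed the adjusted threshold in edgeR, while 6 had an unadjusted p under 0.05 (background 10.8%), 2 of them higher (background 4.85%) and 4 lower (background 6%) in RIPK4.si. DESeq2 passed 2 of the 37, DNAJC6 and DNAJC7 (background 2.91%). The median of the 37 log2 fold changes was -0.01, close to that of all genes.

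DNAJC6, auxilin, recruits HSP70 to strip clathrin from vesicles and is best known from neurons. DNAJC6 was at 27.0, 29.1 and 28.6 CPM in neg.si and at 47.6, 43.6 and 45.4 CPM in RIPK4.si. The libraries of each group lay close together and far from those of the other, with a coefficient of variation of 3.89% and 4.32%. Its log2 fold change was 0.69 (standard error 0.14, 1.61-fold higher), and its adjusted p was 0.0711 in edgeR, 0.00238 in DESeq2 and 0.0439 in edgeR without neg.si replicate 3. The other omissions gave 0.116 to 0.412.

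DNAJC7, which passes clients between HSP70 and HSP90, was at 60.2, 59.6 and 59.2 CPM in neg.si and at 44.03, 37.2 and 39.2 CPM in RIPK4.si. In neg.si it had the smallest variation of the heat shock and co-chaperone genes of at least 10 CPM, 0.843%, and no library of the other group came near. The log2 fold change was -0.57 (standard error 0.14) with an adjusted p of 0.128 in edgeR and 0.0366 in DESeq2. Exons of DNAJC7 overlap those of CNP by 437 bases and of NKIRAS2 by 480 bases on the other strand, from which reads cannot be told apart without strand.

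The other J-domain genes without overlap between groups and with an unadjusted p under 0.05 were DNAJA4, DNAJB14, DNAJC18 and DNAJB4. DNAJA4 was at 5.52, 4.93 and 3.94 CPM in neg.si and at 3.24, 2.70 and 2.57 CPM in RIPK4.si (log2 fold change -0.76, standard error 0.22, adjusted p = 0.199, edgeR). DNAJB14, a J-domain protein of the endoplasmic reticulum membrane, was at 35.3, 40.6 and 64.0 CPM and at 29.6, 32.0 and 31.6 CPM (log2 fold change -0.59, standard error 0.22, adjusted p = 0.352, edgeR). Here neg.si replicate 3 was by far the highest, and without it the log2 fold change was the smallest over the omissions, -0.29.

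DNAJC18, also a protein of the endoplasmic reticulum membrane, was at 16.6, 17.9 and 20.3 CPM in neg.si and at 14.9, 12.4 and 13.9 CPM in RIPK4.si (log2 fold change -0.41, standard error 0.17, adjusted p = 0.399, edgeR). DNAJB4, a cytosolic partner of HSP70, went the other way, at 10.01, 10.4 and 13.5 CPM in neg.si and at 14.4, 16.5 and 15.6 CPM in RIPK4.si (log2 fold change 0.45, standard error 0.18, adjusted p = 0.386, edgeR). None of these 4 genes passed the threshold in edgeR, and DNAJB14 had an adjusted p of 0.0393 with the GC trend removed.

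The best known J-domain genes had smaller differences. DNAJB1, the main stress-inducible J-domain protein, was at 205, 183 and 138 CPM in neg.si and at 182, 211 and 175 CPM in RIPK4.si, overlapping between groups (log2 fold change 0.11). DNAJA1, which brings clients to HSPA8, was at 255, 235 and 226 CPM in neg.si and at 199, 229 and 177 CPM in RIPK4.si (log2 fold change -0.24), and all 4 DNAJA genes had a log2 fold change below 0. DNAJB6, which keeps polyglutamine proteins from aggregating, was at 124, 114 and 120 CPM in neg.si and at 104, 101 and 96.1 CPM in RIPK4.si. Its groups did not overlap, and its log2 fold change of -0.25 had an adjusted p of 0.564 in edgeR. DNAJC8, a J-domain protein found with splicing factors and the highest of its class, was at 131 to 177 CPM in neg.si and 135 to 169 CPM in RIPK4.si (log2 fold change -0.02).

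**Figure D4:**
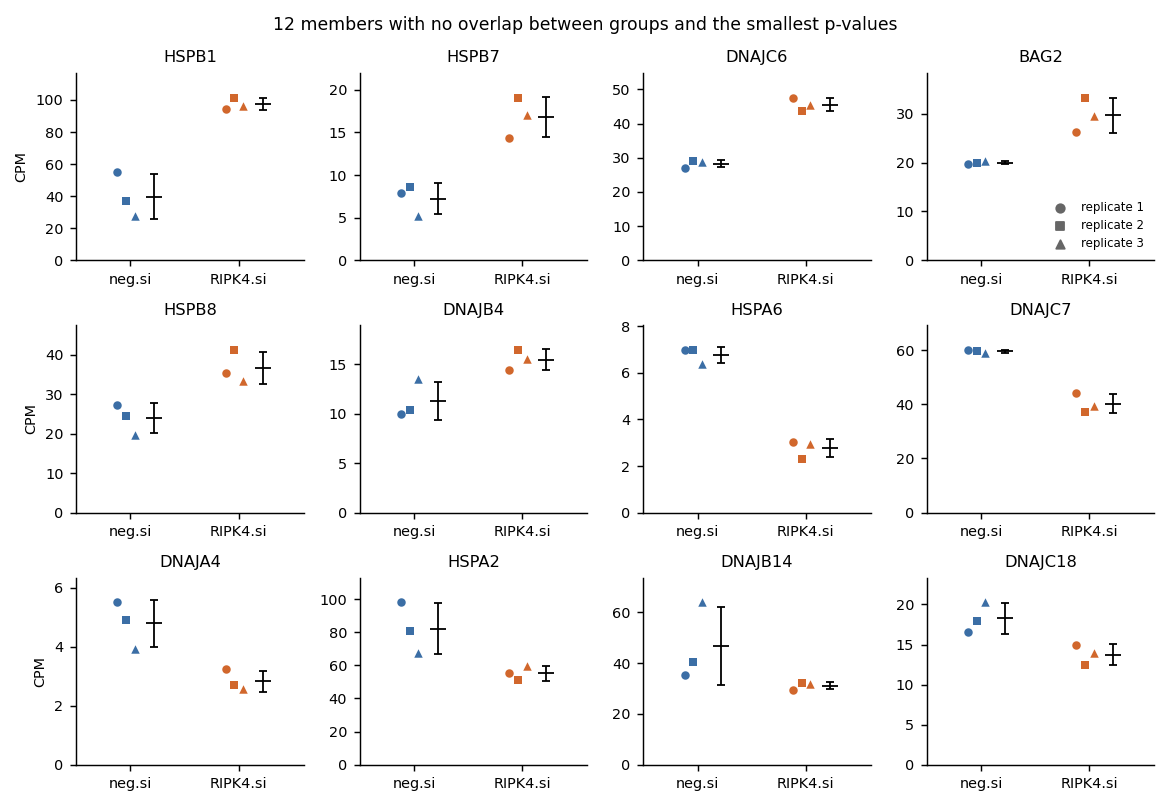
CPM in each library (circles, squares and triangles for replicates 1, 2 and 3, blue for neg.si and orange for RIPK4.si) for the 6 higher and the 6 lower genes that had the smallest p-values among genes without overlap between groups, with the mean and SD beside each group. In HSPB1 and DNAJB14 the blue points spread widely, and in DNAJC6, BAG2, HSPA6 and DNAJC7 they lie close together. Each axis begins at 0.

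The BAG genes had a median log2 fold change of 0.11 over 6 genes, with 0 past the adjusted threshold in edgeR and in DESeq2 and 2 with an unadjusted p under 0.05 in edgeR (background 10.8%). BAG2 releases nucleotide from HSP70 and restrains the ubiquitin ligase CHIP. BAG2 was at 19.7, 20.01 and 20.3 CPM in neg.si and at 26.2, 33.3 and 29.5 CPM in RIPK4.si (log2 fold change 0.57, standard error 0.16, adjusted p = 0.170, edgeR). The neg.si libraries were almost equal, with a coefficient of variation of 1.53%, and the RIPK4.si libraries all stood above them. Exons of BAG2 overlap those of RAB23 by 2842 bases on the other strand, and reads there cannot be told apart without strand. How the counting treated such reads is not given, and their part in the BAG2 count was not tested. BAG3, the stress-inducible partner of HSPB8 in autophagy, was at 44.7, 42.5 and 37.3 CPM in neg.si and at 54.5, 48.9 and 53.5 CPM in RIPK4.si. BAG3 did not overlap between groups (log2 fold change 0.33, standard error 0.15, adjusted p = 0.450, edgeR). BAG1, which also binds BCL2, and BAG6, which guards newly made membrane proteins, overlapped, at log2 fold changes of 0.22 and 0.00.

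Genes of the heat shock response, taken as a list of 16 members (HSP90AA1, HSP90AB1, HSPA1A, HSPA1B, HSPA4L, HSPA6, HSPA8, HSPB1, HSPB8, HSPD1, HSPE1, HSPH1, DNAJA1, DNAJB1, DNAJB4 and BAG3) that also holds the constitutive HSPA8 and HSP90AB1, included both genes that passed (background 0.767%), HSPB1 and HSPA6, in opposite directions. Of the 16, 4 were higher (background 4.85%) and 1 was lower (background 6%) with an unadjusted p under 0.05, and their median log2 fold change was 0.11. Their summed level was 3473, 3414 and 3156 CPM per kb in neg.si and 3497, 4161 and 3439 in RIPK4.si (ratio 1.105, two-sided exact permutation p = 0.2), with 60.7% of the neg.si mean from HSPA8 and HSP90AB1. Without these, in a sum added after the values were seen, the other 14 genes came to 1357, 1305 and 1282 CPM per kb in neg.si and to 1393, 1589 and 1368 in RIPK4.si (ratio 1.103, two-sided exact permutation p = 0.1, the smallest possible here). Over all 75 genes the sums were 5553, 5438 and 4974 CPM per kb in neg.si and 5287, 6292 and 5235 in RIPK4.si (ratio 1.05, two-sided exact permutation p = 0.7). The sums over 16 and over 75 genes overlapped between groups, while in the sum over 14 every RIPK4.si library was above every neg.si library. RIPK4.si replicate 2 was the highest library in each sum. The sum over 14 holds HSPB1, at 70.6, 47.4 and 35.3 CPM per kb in neg.si and 122, 131 and 124 in RIPK4.si. A sum without HSPB1 was not made, so this separation does not show a shift of the whole list.

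The transcription factors of the response were near level. HSF1, its main activator, was at 57.6, 47.4 and 28.0 CPM in neg.si and at 46.5, 54.6 and 48.4 CPM in RIPK4.si (log2 fold change 0.17), and HSF2 at 19.4 to 22.6 CPM and 20.1 to 23.2 CPM (log2 fold change 0.05). Of 4 genes tested, HSF1, HSF2, HSF4 and the heat shock factor binding protein HSBP1, 0 passed in edgeR or DESeq2 and 0 had an unadjusted p under 0.05.

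Among 21 co-chaperones of HSP90 and HSP70 that carry other names, 1 passed in edgeR (background 0.767%) and 2 in DESeq2 (background 2.91%). ST13, the HSP70-interacting protein HIP, slows the release of ADP from HSP70. It was at 308, 290 and 278 CPM in neg.si and at 507, 493 and 482 CPM in RIPK4.si, with all RIPK4.si libraries far above the others (log2 fold change 0.76, standard error 0.14, adjusted p = 0.0480, edgeR). The adjusted p of ST13 was 0.000214 in DESeq2 and in edgeR without 1 library it was above 0.05 in every case but neg.si replicate 3 (0.0412), from 0.0699 without neg.si replicate 1 to 0.332 without neg.si replicate 2. It was also not called in edgeR with DESeq2 size factors (0.0522), without the filter on low counts (0.0543) or with the replicate number as a block (0.0643). NUDC, a partner of HSP90 that also works in nuclear migration, was at 46.0, 35.9 and 32.4 CPM in neg.si and at 66.8, 60.95 and 57.55 CPM in RIPK4.si (log2 fold change 0.70, adjusted p = 0.126 in edgeR and 0.0235 in DESeq2). ST13 and NUDC were the genes of this list with an unadjusted p under 0.05, and neither overlapped between groups.

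In the lists of 14 prefoldin and TRiC cofactor genes, 9 further mitochondrial chaperones and proteases and 3 further heat-inducible genes, 0 genes had an adjusted p under 0.05 in edgeR or DESeq2, or an unadjusted p under 0.05 in edgeR. Prefoldin subunits PFDN1 and PFDN2, which hand actin and tubulin to TRiC, had log2 fold changes of -0.20 and -0.22. The disaggregase CLPB and the protease LONP1, both of mitochondria, had 0.32 and 0.36. CRYAB, the small heat shock protein alpha-B-crystallin, was at 29.8, 30.6 and 24.7 CPM in neg.si and at 33.7, 36.4 and 31.4 CPM in RIPK4.si, without overlap (log2 fold change 0.25), and UBB, a polyubiquitin gene, had a log2 fold change of -0.09.

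Of the 5 chaperones of the endoplasmic reticulum set apart by the rule, 0 passed in edgeR and 1 in DESeq2 (background 2.91%). DNAJB9, a J-domain partner of HSPA5 that is raised by unfolded proteins in that compartment, was at 10.7, 15.2 and 18.4 CPM in neg.si and at 22.4, 28.2 and 26.9 CPM in RIPK4.si (log2 fold change 0.81, standard error 0.22, adjusted p = 0.161 in edgeR and 0.0237 in DESeq2). DNAJB11, another such partner, was at 121 to 137 CPM in neg.si and 93.7 to 118 CPM in RIPK4.si (log2 fold change -0.29, adjusted p = 0.559, edgeR). HSPA5 itself had a log2 fold change of 0.07 and overlapped between groups.

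The GC trend of the neg.si libraries was present in these genes too. Over the 74 tested genes, whose transcripts had 32.7% to 64.5% GC with a median of 44.3%, the log2 ratio of neg.si replicate 1 to neg.si replicate 3 followed GC content with a rank correlation of 0.645, beside 0.653 over all genes. The log2 ratio of RIPK4.si to neg.si followed it with 0.0515. These are correlations across genes of the same libraries, and genes are not independent replicates. GC-rich HSPB1 and HSPA1A were among the most variable genes above 10 CPM in neg.si, with coefficients of variation of 35.1% and 36.5%, against 3.66% and 8.58% in RIPK4.si, and so was GC-poor DNAJB14 at 32.7% against 4.197%. Beside DNAJC7 and BAG2, the least variable was HSPA9 at 3.43%. For the 60 members of at least 10 CPM the median coefficient of variation was 14.5% in neg.si and 9.24% in RIPK4.si, and for all such genes 16.8% and 11.7%. With the GC trend removed, 7 of the 74 genes had an adjusted p under 0.05 in edgeR (background 3.39%), namely HSPB1, HSPB7, HSPB8 and DNAJC6, which were higher, and HSPA6, DNAJC7 and DNAJB14, which were lower. DESeq2 on the deposited counts called 5 (background 2.91%), HSPB1, HSPB7, DNAJC6, HSPA6 and DNAJC7. Without neg.si replicate 3 edgeR called 4 (background 1.78%), HSPB1, HSPB7, DNAJC6 and HSPA6.

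**Figure D5:**
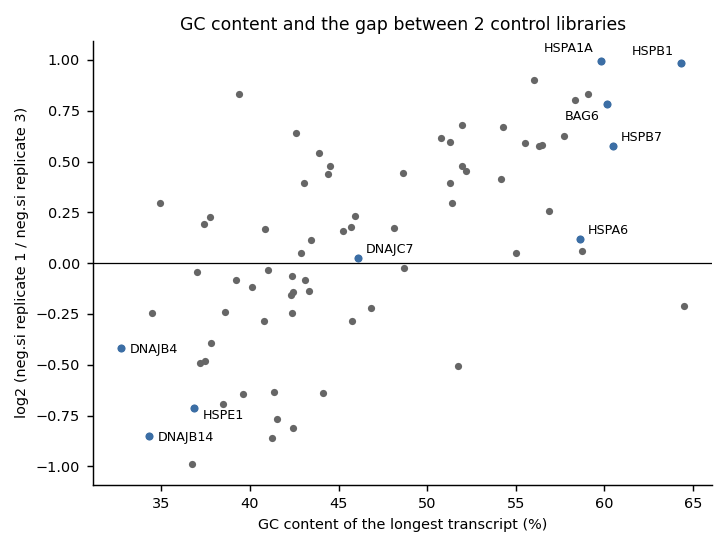
GC content of the longest annotated transcript (%) against the log2 ratio of neg.si replicate 1 to neg.si replicate 3 for the 74 tested genes, with 9 of them named. Points rise from lower left to upper right (rank correlation 0.645), DNAJC7 and HSPA6 lie near 0, and HSPB1 and HSPA1A lie near 1.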

How the data were processed

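The authors made libraries from poly(A) RNA, sequenced paired reads, trimmed them with Cutadapt, aligned them to GRCh38.p13 with TopHat and assigned read pairs to genes with HTSeq in its mode that ignores strand. The deposited counts are whole read pairs, and the deposited signal values, counts the authors divided by DESeq2 size factors, were not used. The deposited fold changes, log2 fold changes with standard errors, p-values and adjusted p-values hold the authors' own comparison and were not used either. The table holds genes with a total of at least 6 counts.

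Counts were tested with edgeR 4.0.16 in R 4.3.3 (TMM, its filter on low counts, quasi-likelihood test of condition, Benjamini-Hochberg adjustment over 16297 genes). Standard errors of log2 fold changes were derived from the F statistic. Levels per kb used MANE Select transcripts of GENCODE release 44, and shared sequence was counted as identical windows of 100 bases. Of the 75 genes, 61 have the same start and end in that release, and 32 have exons that overlap a gene on the other strand, whose reads cannot be told apart. With about equal totals, depth limits mainly genes with few counts. Replicates of a group differed by more than sampling noise, with a chi-square per degree of freedom of 16.4 to 117. Exact permutation tests were two-sided.

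Alternatives were DESeq2 1.42.0, edgeR with DESeq2 size factors, with upper-quartile normalization, without the filter, on genes with 10 or more counts in each library or with a replicate block, removal of each library's GC trend (lowess, span 0.3), both together, and each library left out. Calculations outside R used Python 3.11.15, numpy 2.4.6, pandas 2.3.3, scipy 1.17.1 and matplotlib 3.10.9.

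The members, classes and lists were chosen with earlier results of these data known. Genes named were RIPK4, members with an adjusted p under 0.05, the 6 higher and 6 lower members with the smallest p-values among those without overlap, the highest member per kb of each class, 20 best known members, the 3 most and 3 least variable members of at least 10 CPM in neg.si, and of the other lists every called gene and the 2 with the smallest p-values, with HSF1 and HSF2. Further genes in the text were named after their values were seen. A further gene of these lists is not reported here.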

Additional observations from a re-analysis of the deposited data

How the results depend on the processing

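Of 14 alternatives, the count of 74 genes with an adjusted p under 0.05, 2 in the edgeR test reported, became 5 with DESeq2, 3 with upper-quartile normalization and 3 without the filter, where HSPB7 was the gene gained, 1 with DESeq2 size factors in edgeR, 1 with at least 10 counts in every library, 7 with the GC trend removed and 6 with the GC trend removed and the replicate block. With DESeq2 size factors in edgeR HSPB1 had an adjusted p of 0.0522, and with at least 10 counts in every library 0.0510. The count ranged from 0 to 4 when a library was left out. Where it became 0, fewer libraries entered the fit. The RIPK4 log2 fold change ranged from -2.06 to -1.74 with a library left out, and its adjusted p was above 0.05 in 4 of these 6 fits. The median log2 fold change of the members ranged from -0.0382 to 0.0754 with a library left out. The count with an unadjusted p under 0.05 ranged from 9 to 13 with a library left out.

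Whether replicate numbers mark shared experiments is not given in the labels. The study's captions speak of 3 independent experiments without saying whether same-numbered libraries belong together. The libraries did not settle this. Deviations from the group means of same-numbered libraries correlated at -0.242, 0.251 and 0.346, and not every library correlated best with its own number. With the replicate block alone, 3 members were called, HSPB7 again the gene gained, the co-chaperone ST13, not one of the 75, was no longer called (0.0643), and the RIPK4 log2 fold change was -1.88.

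Of 44 named genes, 33 kept their direction in every alternative and 11 did not, all of them far from the threshold. With the GC trend removed BAG6 was at -0.0039 and HSPA1B at -0.0216, and with the block as well BAG6 at -0.0034, HSPA1B at -0.0107 and DNAJC8 at 0.0026. With a library left out, log2 fold changes ranged from -0.18 to 0.21 for BAG6, -0.0354 to 0.25 for DNAJB1, -0.12 to 0.12 for DNAJC8, -0.0205 to 0.11 for HSP90AA1, -0.27 to 0.28 for HSPA1A, -0.0390 to 0.0842 for HSPA1B, -0.0041 to 0.62 for HSPE1, -0.29 to 0.0217 for HSPH1, -0.0256 to 0.22 for CCT5, -0.0705 to 0.42 for HSF1 and -0.24 to 0.12 for UBB. In an alternative chosen after seeing the data, the 1.77-fold ratio of summed small heat shock genes was 1.20 without HSPB1, by its construction. Most of the sum that remained was HSPB11. In another, the 1.105-fold ratio of the heat shock response list was 1.103 without HSPA8 and HSP90AB1, with HSPB1 still in it. The cause of the other changes was not tested.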

Other observations

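Some pseudogenes of the family are in the table. HSPA7, the neighbour that shares sequence with HSPA6, had counts of 9, 16 and 29 in the neg.si libraries against 6, 7 and 13 in the RIPK4.si libraries (adjusted p = 0.572, edgeR), overlapping between groups. CCT6P3, a copy of the TRiC subunit gene CCT6A, had 134, 110 and 268 counts in neg.si and 137, 89 and 142 in RIPK4.si. HSPE1P11, a copy of HSPE1 chosen here after its values were seen, had 6, 0 and 0 counts in neg.si and 17, 11 and 9 in RIPK4.si and did not pass the filter on low counts.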
